A study of Homo sapiens with 9 samples.

Results

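The genes described here are 10 chemokines and inflammatory cytokines, CXCL1, CXCL2, CXCL3, CXCL5, CXCL10, IL8 (current symbol CXCL8), CCL20, IL6, IL1A and IL1B. They were chosen by name, and every non-control probe whose gene name on the array was one of them was taken, which gave 15 probes on 33 spots. The array names 36337 genes and holds 50599 such probes on 58717 spots. The cells were RKO, a colorectal cancer cell line of the CpG island methylator phenotype (CIMP), and their RNA was labelled with Cy3 and hybridized to 9 one-colour SurePrint G3 Human GE v2 arrays. In 8 arrays the cells had been transfected with siRNA for 72 h and then given either mock (ethanol) or the histone deacetylase inhibitor trichostatin A (TSA, 300 nM) for 24 h, with harvest at 96 h. They formed 4 groups of 2 arrays: siCONT (negative control siRNA, mock), siUHRF1 (siRNA against UHRF1, mock), siCONT + TSA and siUHRF1 + TSA. In both groups depleted of UHRF1, replicate 1 had received siUHRF1-1 and replicate 2 siUHRF1-2, so these replicates differ in their siRNA. The remaining array was of cells given the DNA methyltransferase inhibitor 5-aza-dC at 1 µM for 72 h without siRNA. UHRF1 is the protein that brings the maintenance methyltransferase to newly copied DNA, and the study asked what its loss does alone and with HDAC inhibition.

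Chemokines are small secreted proteins that draw leukocytes along a gradient. CXCL1, CXCL2, CXCL3, CXCL5 and IL8 act on the neutrophil receptors CXCR1 and CXCR2, CXCL10 on the T cell receptor CXCR3 and CCL20 on CCR6 of dendritic and Th17 cells, whereas IL6, IL1A and IL1B are cytokines of the acute inflammatory response. In intestinal epithelium and its tumours these genes are classical targets of the transcription factor NF-kB, which is held in the cytoplasm by inhibitors and released by kinases that answer to IL1, TNF and microbial products. IL1B is made as a precursor that is cut by an inflammasome protease before it is active.

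The sequences just before the start sites are printed because they carry a feature that most of these genes share. They are the 100 bases upstream of the RefSeq start site in GRCh38.p14, on the strand of the gene, and the capitals mark matches on either strand to GGNNTTTCC, a short form of the NF-kB motif. The coordinates are chr4:73869293-73869392 (+) for CXCL1, chr4:74099196-74099295 (-) for CXCL2, chr4:74038690-74038789 (-) for CXCL3, chr4:73998678-73998777 (-) for CXCL5, chr4:73740469-73740568 (+) for IL8, chr2:227813742-227813841 (+) for CCL20 and chr7:22727100-22727199 (+) for IL6.
CXCL1: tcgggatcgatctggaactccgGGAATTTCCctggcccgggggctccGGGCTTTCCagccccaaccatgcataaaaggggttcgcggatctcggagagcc
CXCL2: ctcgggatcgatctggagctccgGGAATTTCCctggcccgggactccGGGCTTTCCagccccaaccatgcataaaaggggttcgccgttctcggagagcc
CXCL3: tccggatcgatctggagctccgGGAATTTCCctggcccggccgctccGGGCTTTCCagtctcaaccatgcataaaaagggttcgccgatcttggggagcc
CXCL5: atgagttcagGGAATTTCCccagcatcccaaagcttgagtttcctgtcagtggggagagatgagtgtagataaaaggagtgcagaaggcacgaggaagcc
CXCL8: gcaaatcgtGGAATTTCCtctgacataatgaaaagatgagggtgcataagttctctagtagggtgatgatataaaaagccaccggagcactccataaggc
CCL20: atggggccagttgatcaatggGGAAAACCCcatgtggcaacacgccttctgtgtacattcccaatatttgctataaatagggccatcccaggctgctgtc
IL6: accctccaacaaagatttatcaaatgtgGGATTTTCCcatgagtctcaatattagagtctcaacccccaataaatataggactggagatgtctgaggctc

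All 10 genes had a promoter window of 300 bases (250 before and 50 after the start) in the RefSeq table. A match to GGNNTTTCC on either strand lay in the windows of CXCL1, CXCL2, CXCL3, CXCL5, IL8, CXCL10, CCL20 and IL6, whereas 6.26% of 35116 windows of that length in all held one. As these genes are known as targets of NF-kB, this difference is not independent evidence. CXCL1, CXCL2 and CXCL3 each had a second match nearer the start, and the matches of CXCL10 and CCL20 lay on the opposite strand. IL1A and IL1B had none. The AP-1 motif TGANTCA, found in 7.71% of all windows, occurred in IL8 and IL1A, and no match of one motif overlapped one of the other. The printed windows of CXCL1 and CXCL2 were 94.1% identical, and those of CXCL1 and CXCL3 90%, whereas CXCL5 was 45.2% to 49% identical to these 3. CXCL1 and CXCL2 had 22 CpG sites in their windows and CXCL3 had 24, against 9 in CXCL5, 8 in IL1A, 7 in IL6, 4 in IL8, 3 each in CXCL10 and CCL20 and 2 in IL1B. These matches describe letters in a window, and binding, methylation and activity of these promoters were not measured by the arrays.

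Levels are given as log2 of the spot signal, after background subtraction by the scanner software, minus the 75th percentile of that signal on the same array, so that a level of 0 is the 75th percentile and lower values are dimmer. That percentile was 244 to 336 scanner units among the siRNA arrays, against 815 for 5-aza-dC. The scanner software called 43.6% to 46.6% of probes well above background in the former and 51.6% in the latter. No spot was saturated. The lowest level at which any probe was well above background was -4.52 to -4.20 among siRNA arrays and -4.98 for 5-aza-dC. Over all tested probes, replicates differed by a median of 0.070 (siCONT), 0.26 (siUHRF1), 0.075 (siCONT + TSA) and 0.19 (siUHRF1 + TSA). UHRF1 itself, on the probe A_23_P208880, stood at 2.69 and 2.70 in siCONT, 0.37 and 0.083 in siUHRF1, 2.88 and 2.87 in siCONT + TSA, -0.33 and -0.61 in siUHRF1 + TSA and 3.70 with 5-aza-dC. The arrays labelled siUHRF1 were thus the ones low in UHRF1. Of the markers listed for other cell types, 0 of 7 leukocyte genes were above background on both siCONT arrays and 2 of 7 on both siUHRF1 + TSA arrays. Among epithelial and intestinal markers, KRT8, KRT18, CDX1 and CDX2 were above background on every array and CDH1, VIL1 and LGALS4 on none.

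Most of the 10 genes gave no signal above background in RKO cells under any condition. CXCL2 and CXCL5 were above background on each of the 9 arrays, and CCL20 with 5-aza-dC and on 1 of the 8 siRNA arrays. The other 7 genes, CXCL1, CXCL3, CXCL10, IL8, IL6, IL1A and IL1B, had no probe above background on any of the 9 arrays, and 11 of the 15 probes had none. For these 7 genes only an upper bound can be given, which is the lowest level called above background on each array.

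**Figure D1:**
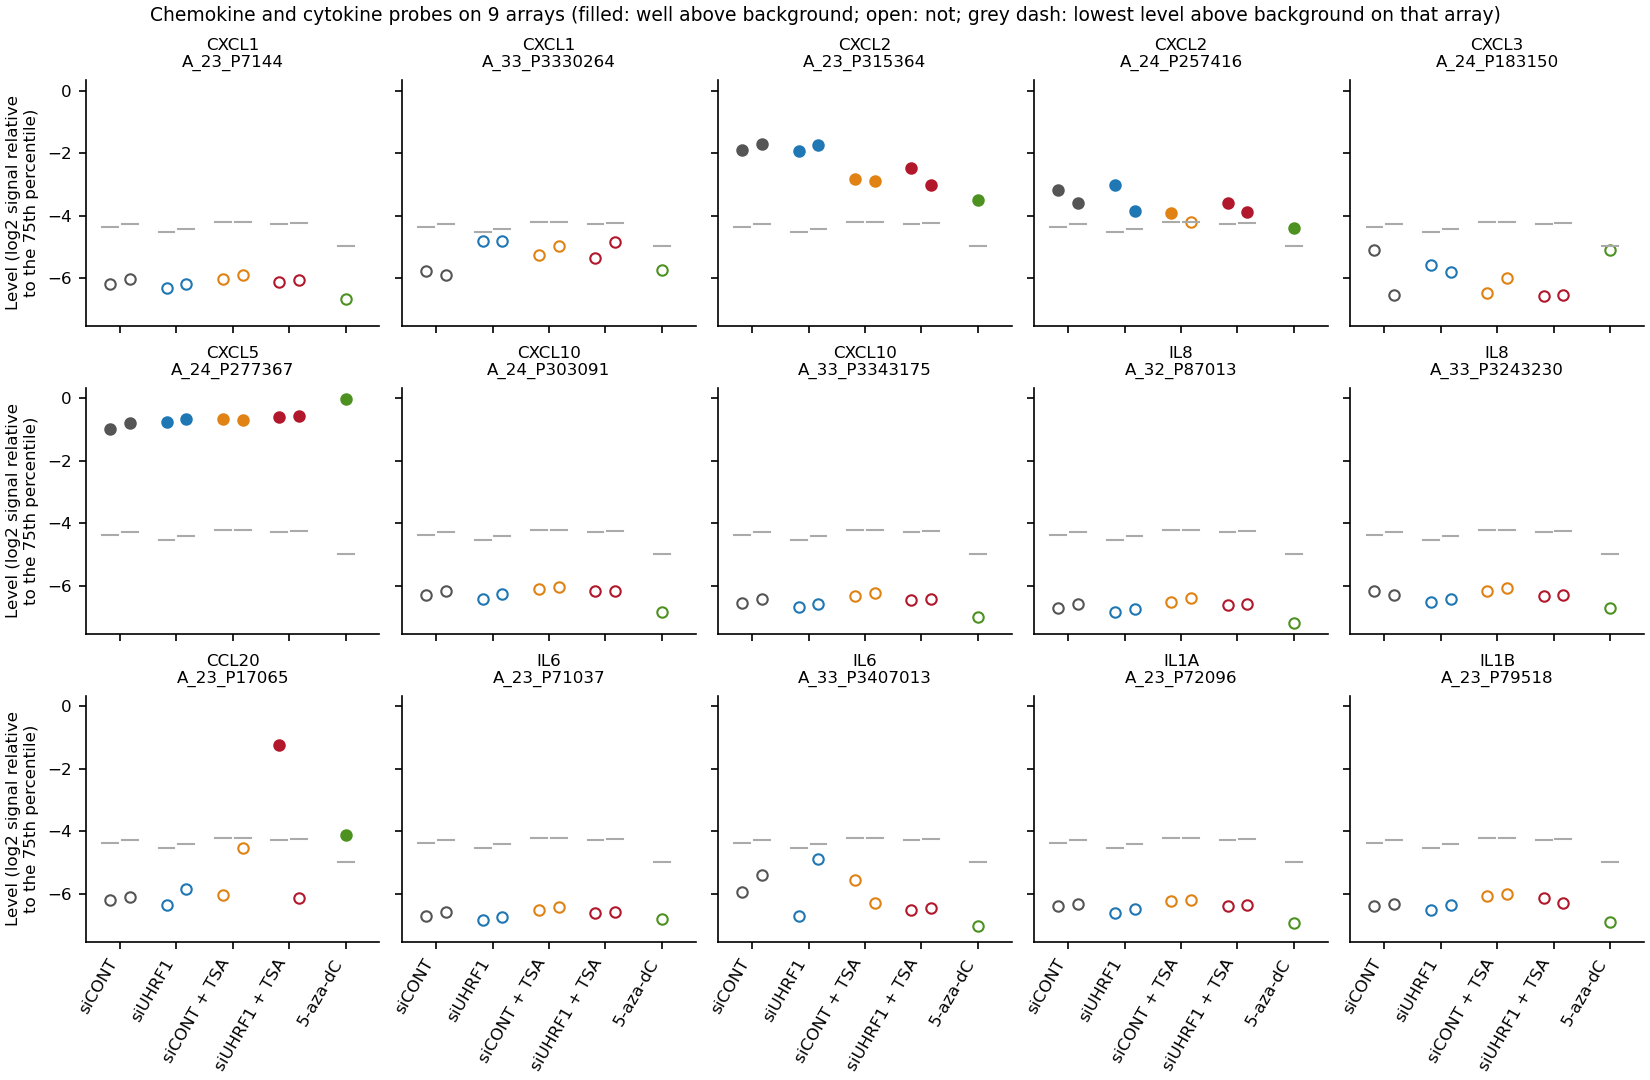
Level of each of the 15 probes (log2 signal relative to the array's 75th percentile, vertical axis) on the 9 arrays, grouped by condition along the horizontal axis. Filled points were well above background, open points were not, and grey dashes mark the lowest level above background on that array. CXCL5 is filled throughout, as is CXCL2 on A_23_P315364, CCL20 is filled on 1 siUHRF1 + TSA array and on the 5-aza-dC array, and 11 panels hold open points alone.

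CXCL2 is a neutrophil chemokine of the CXCL1 subfamily, and its level was lower on the TSA arrays. Its probe A_23_P315364 (hg19, chr4:74962985-74963044, minus strand) stood at -1.90 and -1.71 in siCONT and at -1.92 and -1.74 in siUHRF1. It stood at -2.84 and -2.90 in siCONT + TSA, at -2.47 and -3.03 in siUHRF1 + TSA and at -3.49 with 5-aza-dC. All 4 TSA arrays lay below all 4 mock arrays, and the 2 mock groups overlapped each other, as did the 2 TSA groups. In order of mean level, siCONT (-1.80 ± 0.14, SD, n = 2) and siUHRF1 (-1.83 ± 0.13) came first, then siUHRF1 + TSA (-2.75 ± 0.40) and siCONT + TSA (-2.87 ± 0.039), and the single 5-aza-dC array last.

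The fold changes of CXCL2 were tested with limma, fitted across 23703 probes on the 8 siRNA arrays, with Benjamini-Hochberg adjustment over all of them and a call at an adjusted p below 0.05. Nothing in the labels says that the 2 arrays of a group came from separate cultures, so these p-values measure the spread between these samples. The mock and TSA arrays also lay in different rows of their slide, so drug and row cannot be told apart. Arrays with control siRNA lay in columns 1 and 2 and those with siRNA against UHRF1 in columns 3 and 4. Depletion and column cannot be told apart either. With TSA alone CXCL2 fell by 1.07 (log2, SE 0.19, 95% interval -1.54 to -0.59), to 0.478 of its siCONT signal (adjusted p = 0.0258). With UHRF1 depletion and TSA together it fell by 0.95 against siCONT (SE 0.19, interval -1.42 to -0.47), to 0.519 of that signal (adjusted p = 0.0190). Between siUHRF1 and the same arrays it fell by 0.92 (interval -1.39 to -0.45, adjusted p = 0.0298). TSA was thus followed by a lower CXCL2 signal with and without UHRF1, in comparisons that share the siCONT arrays or the siUHRF1 + TSA arrays. UHRF1 depletion alone gave a difference of -0.025 (interval -0.50 to 0.45, adjusted p = 0.989), and UHRF1 depletion under TSA one of 0.12 (interval -0.35 to 0.59, adjusted p = 0.815). The effect of depletion under TSA exceeded that under mock by 0.14 (interval -0.52 to 0.81), which was not called. The ends of these intervals bound the changes that 2 arrays a group could have missed.

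The call on CXCL2 depended on single arrays. For siCONT + TSA against siCONT it was lost without either siCONT array or either siCONT + TSA array, with a log2 fold change of -1.16 to -0.97 over the arrays left out in turn and a highest adjusted p of 0.156. For siUHRF1 + TSA against siCONT it was lost without either siCONT array (range -1.23 to -0.67, highest adjusted p 0.118). Against siUHRF1 it was lost without any of the arrays but siUHRF1 + TSA replicate 1 (range -1.20 to -0.64, highest adjusted p 0.0736). CXCL2 was called in none of these 3 comparisons with normexp background correction, with scaling on spike-in probes or with no filter on dim probes. With normexp the change on A_23_P315364 was -0.10 for TSA alone, -0.44 for the combination and -0.41 for the combination against siUHRF1, so its size too depended on the background correction.

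The second CXCL2 probe, A_24_P257416 (hg19, chr4:74964342-74964401, minus strand), lies in the coding sequence and lists the RefSeq transcripts of both CXCL2 and CXCL3, so it cannot separate these near-identical paralogs. It stood at -3.18 and -3.58 in siCONT, at -3.03 and -3.87 in siUHRF1, at -3.92 and -4.20 in siCONT + TSA (the second not above background), at -3.61 and -3.89 in siUHRF1 + TSA and at -4.41 with 5-aza-dC. The siCONT + TSA arrays lay below the siCONT arrays, but the siUHRF1 arrays overlapped every siRNA group except siCONT + TSA. Its fold changes (SE 0.30) were -0.68 for TSA alone (interval -1.40 to 0.048, adjusted p = 0.196), -0.37 for the combination against siCONT (adjusted p = 0.414) and -0.30 for the combination against siUHRF1. None was called, so the 2 probes had the same sign under TSA but gave different calls.

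The paralogy of the probes is visible in their sequences, which are shown because they limit what a CXCL2 or CXCL1 signal can mean. The CXCL2 probe A_24_P257416 and the CXCL1 probe A_33_P3330264 overlap by 37 bases, starting at base 24 of the CXCL2 probe, and are 86.5% identical there. The capitals mark the 5 bases of the overlap at which they differ.
CXCL2 A_24_P257416: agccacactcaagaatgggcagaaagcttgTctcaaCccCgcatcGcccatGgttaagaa
CXCL1 A_33_P3330264: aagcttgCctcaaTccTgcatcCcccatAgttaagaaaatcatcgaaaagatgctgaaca

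CXCL5, a neutrophil chemokine made by epithelial cells, was the other gene above background on all arrays. Its probe A_24_P277367 (hg19, chr4:74861898-74861957, minus strand) stood at -0.97 and -0.78 in siCONT, at -0.77 and -0.66 in siUHRF1, at -0.65 and -0.69 in siCONT + TSA, at -0.59 and -0.55 in siUHRF1 + TSA and at -0.01 with 5-aza-dC. Every treated array lay above both siCONT arrays, and the siUHRF1 and siCONT + TSA arrays overlapped each other. The differences among siRNA groups were small and none was called. Against siCONT they were 0.16 for siUHRF1 (SE 0.10, adjusted p = 0.762), 0.21 for siCONT + TSA (interval -0.041 to 0.46, adjusted p = 0.239) and 0.31 for siUHRF1 + TSA (interval 0.053 to 0.56, adjusted p = 0.0823). UHRF1 depletion under TSA gave 0.095 (adjusted p = 0.705), and the effect of depletion under TSA less that under mock was -0.069.

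**Figure D2:**
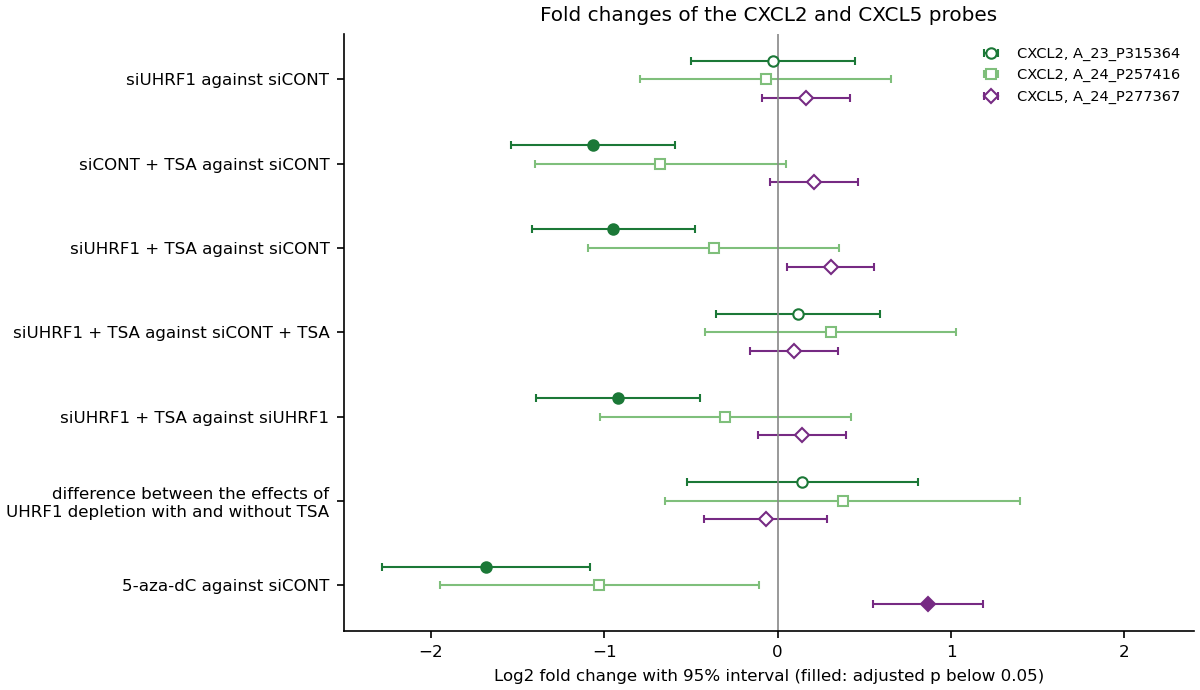
Log2 fold changes of the CXCL2 and CXCL5 probes (horizontal axis) in 7 comparisons (vertical axis), with 95% intervals from limma. Filled symbols passed an adjusted p of 0.05: CXCL2 on A_23_P315364 lay below 0 in the 3 comparisons of TSA with mock and with 5-aza-dC, and CXCL5 lay above 0 with 5-aza-dC.

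Over all 10 genes, 3 probes of 2 genes could be tested on the siRNA arrays, since a probe had to be above background on both arrays of a group. Under UHRF1 depletion alone 0 of these 3 were called by limma and 0 had an unadjusted p below 0.05, where 0.561% of all tested probes were called (0.523% higher, 0.038% lower). TSA alone lowered 1 and raised 0, where 10.4% of all probes were called, 6.43% higher and 3.98% lower. The combination lowered 1 and raised 0 against siCONT, where 23.2% of all probes were called, 14.9% higher and 8.29% lower. UHRF1 depletion under TSA gave 0 calls (0 at an unadjusted p below 0.05) against a background of 3.51% (2.96% higher, 0.553% lower), and the combination against siUHRF1 gave 1 lower probe against 15.5% of all probes called, 9.96% higher and 5.5% lower. When the effect of depletion under TSA was set against that under mock, 0 of the 3 were called (0 at an unadjusted p below 0.05), where 0.375% of all probes were (0.354% higher, 0.0211% lower). With 3 probes, of which 2 are of 1 gene, these counts are too few to be read against such shares. Groups whose arrays do not overlap, as for CXCL2 and CXCL5, were common among all probes, at 37.3% for siUHRF1 against siCONT, 75.5% for TSA alone, 69.6% for the combination, 53.7% for depletion under TSA, 53% for the combination against siUHRF1 and 94.2% for 5-aza-dC.

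CCL20, the ligand of CCR6, was above background on a single siRNA array. Its probe A_23_P17065 spans an exon junction (hg19, chr2:228681100-228681836, plus strand) and was at -6.21 and -6.09 in siCONT, -6.37 and -5.84 in siUHRF1 and -6.04 and -4.52 in siCONT + TSA, none of them above background. In siUHRF1 + TSA it was at -1.25 on replicate 1, with a signal of 118, and at -6.12 on replicate 2, with a signal of 3.91 and not above background. The array with siUHRF1-1 was thus at least 8.36-fold above siCONT and at least 7.74-fold above siCONT + TSA, and the array with siUHRF1-2 was not above background, so the 2 arrays of the group differed by more than any group did from another. The probe was not tested on the siRNA arrays, because it was above background on 1 of the 2 arrays of a group and on no more. The mean of that group gives no lower bound, since its other array was below background. Without siUHRF1 + TSA replicate 2 the probe passed the filter through the 1 array left in that group, taken to vary like the others. Its level there was 4.90 (log2) above siCONT and 4.85 above siUHRF1. The filter used the same value and the spread of the group was left out, so a call there is no test of a rise. The spot itself was uneven on that array, with a mean of 138 and a median of 101 over its pixels and an SD of 65.1% of the mean, where the CCL20 spot on the other siRNA arrays had an SD of 30.8% to 44.6%. The part of this unevenness, of the siRNA used and of the culture in the signal was not tested.

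**Figure D3:**
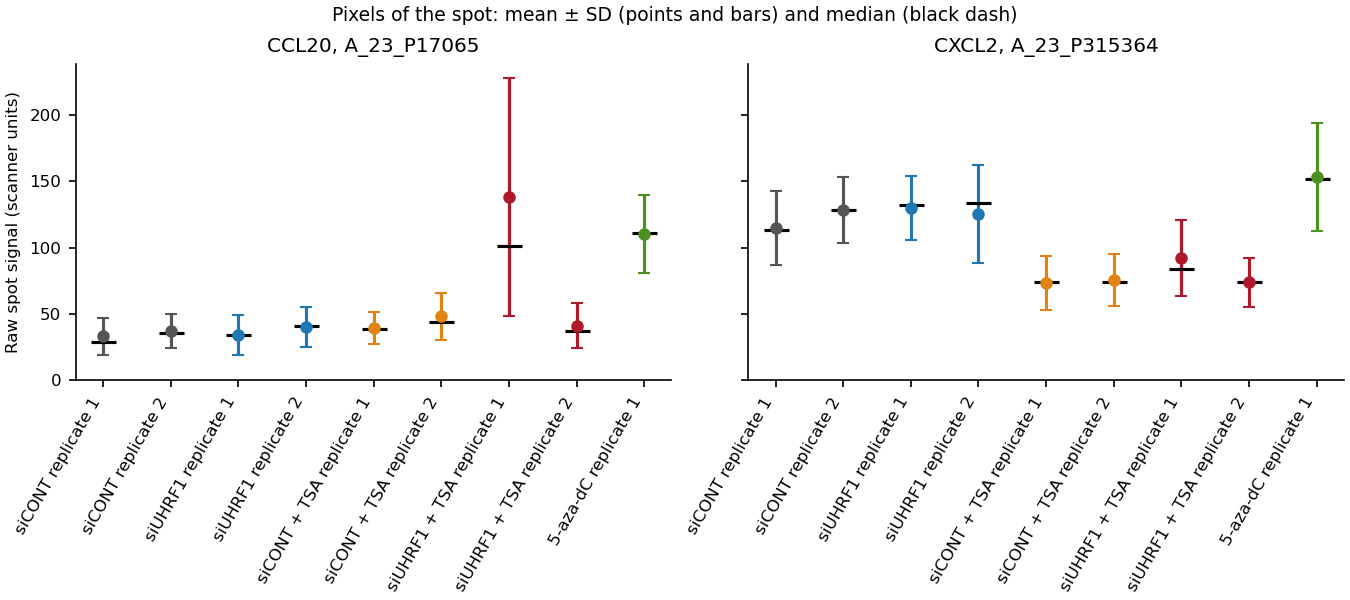
Raw signal of the pixels of the CCL20 spot and of the CXCL2 spot A_23_P315364 (vertical axis, scanner units) on each of the 9 arrays, with the mean as a point, the SD over pixels as a bar and the median as a black dash. On siUHRF1 + TSA replicate 1 the CCL20 spot has a mean of 138 and a median of 101, and its bar is the widest of the panel.

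CXCL1, the founding member of the neutrophil-attracting group, had 2 probes and neither was above background. The probe A_23_P7144 (hg19, chr4:74736850-74736909, plus strand) lay between -6.33 and -5.91 on the siRNA arrays. The coding probe A_33_P3330264 (chr4:74735646-74735705), shown above, was at -5.79 and -5.91 in siCONT, -4.82 and -4.81 in siUHRF1, -5.27 and -4.99 in siCONT + TSA and -5.35 and -4.84 in siUHRF1 + TSA. These values have no tested order, being below the lowest level called above background on each array. CXCL3, a further ligand of CXCR2, lay between -6.58 and -5.11 on the siRNA arrays and at -5.10 with 5-aza-dC. IL8, the chemokine most often measured in epithelial inflammation, had 2 probes with levels from -6.84 to -6.08 on the siRNA arrays. CXCL10, an interferon-induced chemokine, had 2 probes from -6.66 to -6.03.

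The 3 cytokines behaved in the same way. IL6 gave -6.83 to -6.41 on A_23_P71037 and -6.71 to -4.90 on A_33_P3407013, whose transcript is an Ensembl model. IL1A, a membrane-bound alarmin, and IL1B each had 10 spots of 1 probe, of which some were left out as outliers on single arrays. Their mean levels on the siRNA arrays were -6.60 to -6.18 for IL1A and -6.52 to -6.02 for IL1B. The 10 spots do not bring either gene above background on any array. In bulk RNA, few cells with much of a transcript and many cells with little of it cannot be told apart, and this holds for each level given here.

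5-aza-dC was compared with siCONT in a fit to all 9 arrays. It had 1 array, whose spread was taken to equal that of the siRNA groups. For CCL20 that shared spread includes an SD of 3.45 in siUHRF1 + TSA, against 0.084 in siCONT. That array had no siRNA and lay on another slide with another scan, so the drug, the transfection, the slide and the scan cannot be told apart. CXCL2 fell by 1.68 (SE 0.24, interval -2.28 to -1.08, 0.311 of the siCONT signal, adjusted p = 0.00270) on A_23_P315364 and differed by -1.03 (interval -1.95 to -0.11, adjusted p = 0.0657) on A_24_P257416, which was called without either siUHRF1 array. Before scaling, the former spot gave 72.6 scanner units on the 5-aza-dC array and 75.2 and 86.4 on the siCONT arrays, so the lower level came with the higher 75th percentile of that array. CXCL5 was higher by 0.87 (SE 0.13, interval 0.55 to 1.18, 1.82-fold, adjusted p = 0.00293), but the direction turned when arrays were scaled on their spike-in probes (-0.45, not called), a scaling that moved the median of all probes by -1.32. CCL20 was above background at -4.11, at least 1.15-fold over siCONT, and was not called (2.04, SE 1.83, adjusted p = 0.394). Of the 4 probes tested 1 was called higher and 1 lower, in a comparison in which 48.9% of all probes were called, 24.2% higher and 24.7% lower.

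The genes whose levels ran most like those of the 2 measurable chemokines were sought by Pearson's r over the 8 siRNA arrays, among 12034 genes above background on all of them, as a description in which the points share arrays and scaling. For CXCL2 these were TMEM268 (r = 0.991), CEBPB (0.991) and CYB5A (0.989), with 383 genes above 0.9 and a median r of -0.21 over all genes. For CXCL5 they were MMP14 (0.973), TOE1 (0.968) and CLUAP1 (0.967), with 130 genes above 0.9 and a median of 0.20. CEBPB, a transcription factor that binds many cytokine promoters, was at 4.33 and 4.37 in siCONT, 4.38 and 4.49 in siUHRF1, 3.58 and 3.60 in siCONT + TSA and 3.82 and 3.43 in siUHRF1 + TSA. As with CXCL2, its 4 TSA arrays lay below its 4 mock arrays. Its change was -0.75 with TSA alone (adjusted p = 0.0280), -0.72 with the combination and -0.81 with the combination against siUHRF1, and each of these calls was lost without single arrays.

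The surroundings of the 10 genes were described from 8 lists of pathway genes, each gene represented by its probe of highest mean signal. Of 99 such genes tested on the siRNA arrays, 3 rose and 0 fell with UHRF1 depletion alone (3.03%, all probes 0.561%). With TSA alone 6 rose and 8 fell (14.1%, all probes 10.4%), and with the combination 13 rose and 11 fell against siCONT (24.2%, all probes 23.2%). A fit to only the siCONT and siCONT + TSA arrays called 9905 probes (5986 higher) for TSA alone, in place of 2467. It called 52 pathway genes in place of 14. Over all alternatives, the combination reached at most 8965 probes and 40 pathway genes. The order of TSA alone and the combination by count thus depended on the arrays fitted. UHRF1 depletion under TSA raised 3 and lowered 1 (4.04%, all probes 3.51%), and the combination against siUHRF1 raised 10 and lowered 10 (20.2%, all probes 15.5%). When the effect of depletion under TSA was set against that under mock, limma called 0 (all probes 0.375%). At an unadjusted p below 0.05 it called 6 of the 99, where 1166 of all 23703 probes were called. With 5-aza-dC 36 of 108 rose and 29 fell (60.2%, all probes 48.9%). Any probe above background on the 5-aza-dC array could enter this comparison, which added genes to the 99. Rises of genes below background in siCONT therefore follow in part from the filter, in each list and over all probes. Among these genes are CXCL12, CXCL14, CXCR4, TGFB2 and PYCARD.

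**Figure D4:**
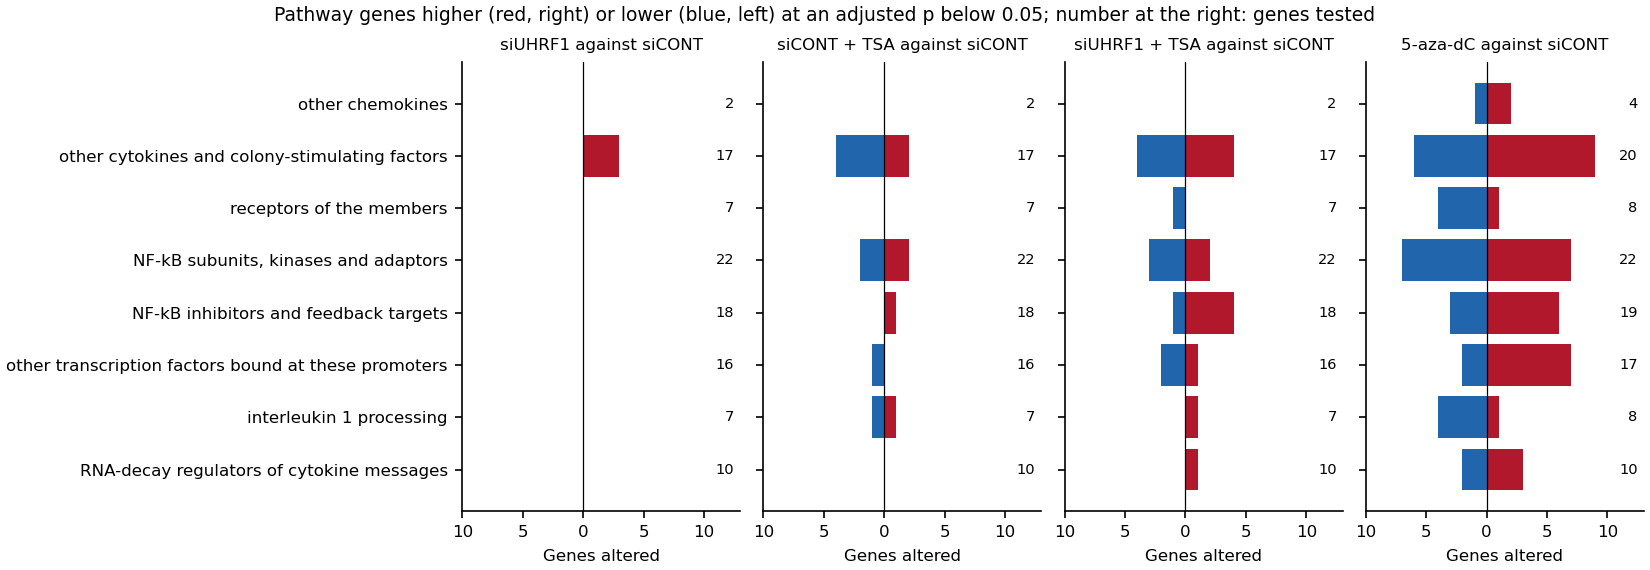
Number of genes of each pathway list that were higher (red, to the right of 0) or lower (blue, to the left of 0) at an adjusted p below 0.05, in 4 panels for the 4 comparisons with siCONT, with the number of genes tested at the right of each row. The 3 genes altered by UHRF1 depletion alone are all in the list of other cytokines, and 0 of 2 other chemokines, each counted by its brightest probe, are altered in any siRNA panel.

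Most other chemokines were below background too. Of 26 genes on the array, 19 were above background on no array and 2 on both siCONT arrays, namely CXCL16, a membrane-bound chemokine of epithelial cells, and CCL3, whose near-identical copies can share its probe. CXCL16 lay between 2.38 and 2.87 on the siRNA arrays and CCL3 between 0.17 and 0.76, and 0 of 2 were called in any comparison of siRNA arrays. A second CXCL16 probe, A_23_P38505, was called lower in siUHRF1 + TSA than in siCONT (-0.36, adjusted p = 0.0366). With 5-aza-dC, CXCL16 fell by 1.34 (adjusted p = 0.00144), CXCL12 was at least 1.72-fold higher and CXCL14, a chemokine often lost in epithelial tumours, at least 2.29-fold higher, the last being also above background on siUHRF1 + TSA replicate 1 (-3.62).

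Of 15 receptors, 7 were above background on both siCONT arrays. CXCR1 and CXCR2, through which the neutrophil chemokines act, were above background on no array, as was IL1R1, whereas CXCR3, CCR6, IL6R, IL6ST, the signalling chain of the IL6 receptor, and IL1RAP, the accessory chain for IL1, were on all arrays. Among the siRNA comparisons with siCONT, 1 of 7 was called: IL18R1, a receptor chain for IL18, was at least 1.91-fold lower in siUHRF1 + TSA, where it was not above background (adjusted p = 0.0173), a call lost without either siCONT array or siUHRF1 + TSA replicate 1. With 5-aza-dC 1 of 8 rose and 4 fell. CXCR4 was at least 2.30-fold higher, and IL6R (-1.11), IL6ST (-0.84) and IL1RAP (-1.10) were among those lower. Probes of IL1RAP differed: A_23_P170857, which was not the brightest, gave -0.42 with 5-aza-dC (adjusted p = 0.111) and was called lower with TSA alone (-0.65, adjusted p = 0.0462) and with the combination (-1.78, adjusted p = 0.00119), calls that the count of 1 of 7, made on the brightest probe of each gene, does not include.

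The largest movements were in the list of other cytokines and growth factors, of which 17 of 27 were tested. IL18, a relative of IL1B that is processed by the same protease, was at -3.81 and -3.58 in siCONT, -0.92 and -1.64 in siUHRF1, -1.90 and -1.85 in siCONT + TSA, 1.34 and 0.54 in siUHRF1 + TSA and -0.65 with 5-aza-dC. No treated array came near the siCONT arrays, and the 2 siUHRF1 + TSA arrays were the highest. The log2 fold change against siCONT was 2.42 with UHRF1 depletion (SE 0.32, adjusted p = 0.0448), 1.82 with TSA (adjusted p = 0.0238) and 4.64 with both (SE 0.32, adjusted p = 0.000586). UHRF1 depletion under TSA raised it by 2.82 (adjusted p = 0.00775). The calls for both treatments against siCONT, for depletion under TSA, and for the combination against siUHRF1 (2.22, adjusted p = 0.0106) held with any array left out, whereas that for UHRF1 depletion alone was lost without any 1 of the 8 arrays (2.06 to 2.78, adjusted p 0.0547 to 0.174) and that for TSA alone without either siCONT or either siCONT + TSA array.

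Others of this list differed by condition. AREG, a ligand of the EGF receptor, was at -2.70 and -2.49 in siCONT, -1.40 and -1.39 in siUHRF1, -2.98 and -3.42 in siCONT + TSA, -2.27 and -2.38 in siUHRF1 + TSA and 1.17 with 5-aza-dC. It rose with UHRF1 depletion by 1.20 (adjusted p = 0.0498, on a second probe 0.66, adjusted p = 0.100), as did HBEGF, a ligand of the same receptor, by 0.88 (adjusted p = 0.0498). Both calls lay at the threshold. That for HBEGF was lost without any 1 of the 8 arrays (highest adjusted p 0.196) and that for AREG without any but the siCONT + TSA arrays (0.210). IL24, a cytokine of the IL10 family, was at -2.85 and -2.82 in siCONT, -1.31 and -1.66 in siUHRF1, -4.32 and -4.90 in siCONT + TSA (not above background), -2.77 and -2.69 in siUHRF1 + TSA and 0.74 with 5-aza-dC. It was at least 2.57-fold lower with TSA alone than in siCONT (called, but lost without either siCONT array) and at least 2.77-fold higher in siUHRF1 + TSA than in siCONT + TSA (adjusted p = 0.00716, held with any array left out), but both directions turned with normexp background correction.

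TSLP, an epithelial cytokine that acts on dendritic cells, was at -3.80 and -3.68 in siCONT and at -3.21 and -3.95 in siUHRF1, and above background on no TSA array and not on the 5-aza-dC array. It was at least 1.38-fold lower in siCONT + TSA (a direction that turned with normexp background correction) and at least 1.44-fold lower in siUHRF1 + TSA than in siCONT, and both calls held with any array left out. INHBA, a subunit of activin, was not above background in siCONT, siUHRF1 or siCONT + TSA, and was at -2.48 and -3.58 in siUHRF1 + TSA, at least 2.43-fold over siCONT. It was tested only because it was above background in siUHRF1 + TSA. Its call there thus follows in part from the filter, and it was lost without siCONT replicate 2. VEGFA, the endothelial growth factor, fell by 0.83 with TSA, a call lost without 6 of the 8 arrays (both siUHRF1 arrays excepted), and by 1.20 with the combination, a call lost without siCONT replicate 2. Its second probe, A_24_P12401, fell as well (adjusted p = 0.00996 with TSA and 0.00187 with the combination). With 5-aza-dC 9 of 20 rose and 6 fell, among them AREG (3.77), IL24 (3.58) and TGFB2, which was at least 10.8-fold higher. Markers of stromal cells moved alongside: 1 of 5 was above background on both siCONT arrays and 5 of 5 on both siUHRF1 + TSA arrays, with a summed signal of 0.244 to 0.276 and of 0.933 to 1.17 times the 75th percentile, and that of the 7 leukocyte markers was 0.162 to 0.229 and 0.282 to 0.375. Of the 3 endothelial markers, VWF was at least 1.94-fold higher than in siCONT in siUHRF1, at least 2.44-fold in siCONT + TSA and at least 10.5-fold in siUHRF1 + TSA, each of them called, whereas PECAM1 was above background on no array and CDH5 was not called. VWF was above background on no siCONT array, so it was tested only through groups in which it was higher. The summed signal of the endothelial markers was 0.159 to 0.163 in siCONT and 0.552 to 0.684 in siUHRF1 + TSA. The epithelial markers rose as well, from a summed signal of 47.4 to 48.2 in siCONT to 74.3 to 91.1 in siUHRF1 + TSA. With the combination 2 of 3 epithelial markers tested were called higher (all probes 14.9%), and 0 of 2 intestinal markers were called. KRT19 was at least 4.25-fold higher in siUHRF1 + TSA than in siCONT, and was tested on the siRNA arrays only through siUHRF1 + TSA. The leukocyte markers MS4A1 and ITGAM were above background on no array, and the part of other cells in these results was not tested.

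**Figure D5:**
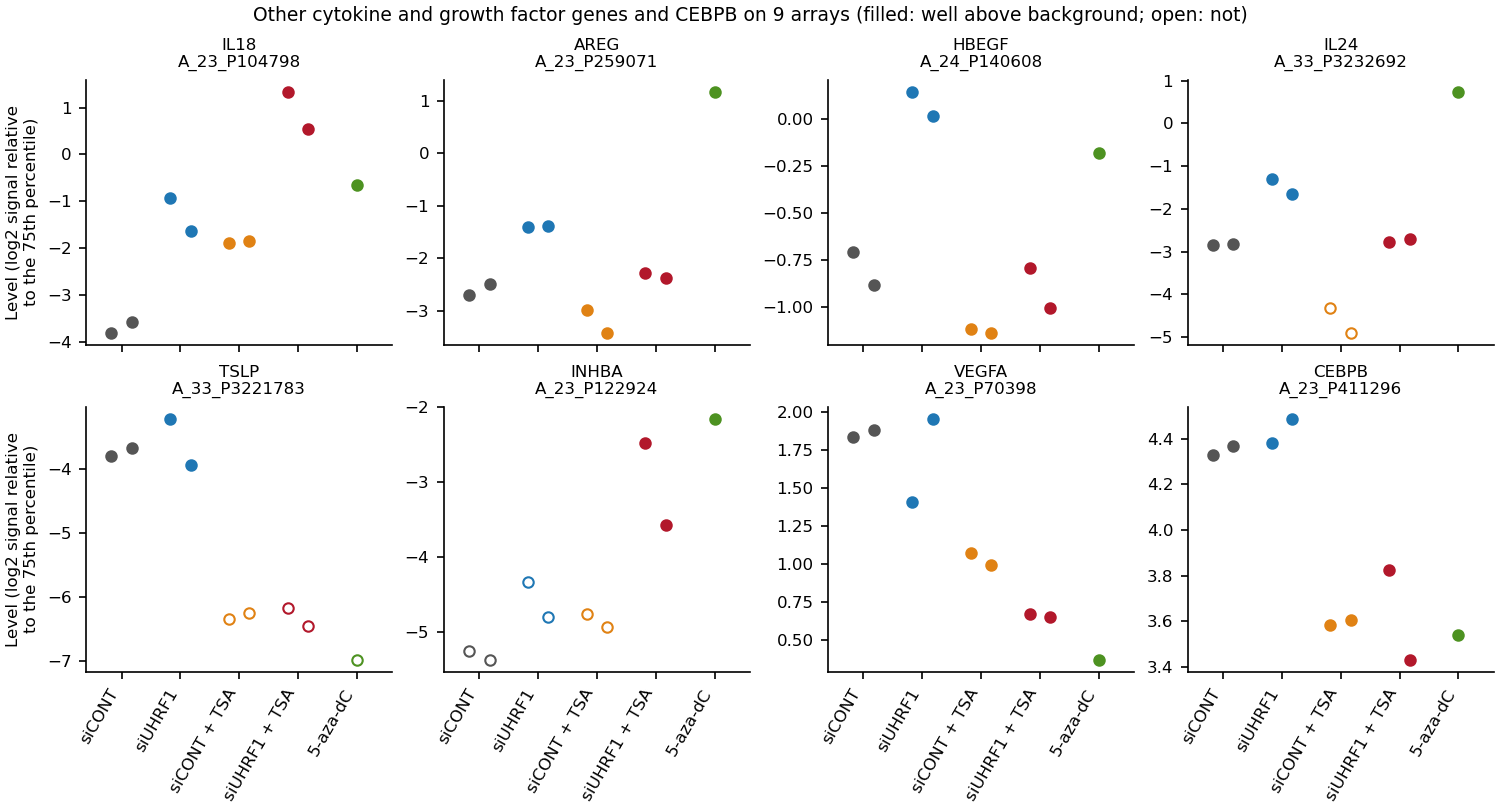
Level (log2 signal relative to the array's 75th percentile, vertical axis, each panel with its own range) of 7 cytokine and growth factor genes and of CEBPB on the 9 arrays, grouped by condition along the horizontal axis. Filled points were well above background and open points were not. IL18 rises from between -3.81 and -3.58 in siCONT to between 0.54 and 1.34 in siUHRF1 + TSA, and TSLP is open on every TSA array.

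Transcripts of the NF-kB pathway itself were measurable. All 22 NF-kB subunits, kinases and adaptors were above background on both siCONT arrays. RELA, the main activating subunit, differed from siCONT by 0.059 in siUHRF1 (SE 0.10, adjusted p = 0.933), by 0.23 in siCONT + TSA (adjusted p = 0.205) and by 0.34 in siUHRF1 + TSA (adjusted p = 0.0610). NFKB1, the precursor of p50, differed by 0.053, -0.12 and 0.14, and none of these was called. UHRF1 depletion altered 0 of 22 in this list (limma, adjusted p below 0.05). TSA alone raised 2 and lowered 2, and the combination raised 2 and lowered 3 against siCONT. MAP3K14, the kinase of the alternative NF-kB pathway, was at 2.02 and 2.00 in siCONT, 2.00 and 2.11 in siUHRF1 and between 3.1 and 3.21 on the 4 TSA arrays. Its TSA arrays stood apart from its mock arrays, by 1.16 with TSA alone (adjusted p = 0.00597) and 1.15 with the combination (adjusted p = 0.00111), and both calls held with any array left out. IRAK2, a kinase of the IL1 receptor complex, fell by 0.53 with TSA, a call lost without either siCONT or either siCONT + TSA array, and fell by 1.16 with the combination (adjusted p = 0.000815), which held. With 5-aza-dC 7 rose and 7 fell in this list, RELA by 0.45 upwards (adjusted p = 0.0279), and IKBKE, an NF-kB kinase, was at least 2.38-fold lower, a call lost without siCONT replicate 2.

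Of the NF-kB inhibitors and feedback targets, 18 of 22 were tested and 0 were called with UHRF1 depletion. NFKBIE, an inhibitor of the NF-kB subunits, was higher by 0.49 with TSA and by 0.78 with the combination, the latter with any array left out. NFKBIA, the best known of these inhibitors, gave 0.29 with TSA (adjusted p = 0.0884) and rose by 0.34 with the combination (adjusted p = 0.0381). TNFAIP3, an enzyme that ends NF-kB signalling, fell by 0.67 with the combination, a call lost without either siCONT array or siUHRF1 + TSA replicate 1. The combination raised 4 and lowered 1 of this list in all. With 5-aza-dC 6 of 19 rose and 3 fell, with BIRC3, a target and regulator of NF-kB, changing most (-2.57).

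Of 17 other transcription factors, 16 were tested. UHRF1 depletion altered 0, TSA lowered CEBPB, and the combination raised CEBPA (0.67) and lowered CEBPB and ATF3, a stress-induced repressor of cytokine genes (-1.54, and -1.54, -1.23 and -0.064 on its other probes, the last not called). Without siCONT replicate 2 the call on CEBPA was lost, and without siCONT replicate 1 that on ATF3 (adjusted p = 0.0564). With 5-aza-dC 7 of 17 in this list rose and 2 fell. In the list of IL1 processing 7 of 11 were tested on the siRNA arrays. TSA alone raised S100A13 (0.63) and lowered CASP5 (-0.43), and the combination raised S100A13 (0.36), calls lost without single arrays. With 5-aza-dC 1 of 8 rose and 4 fell, among them GSDMD (-1.55), CASP5 (-0.91) and CASP4 (-0.85). The gene that rose was PYCARD, the adaptor that links inflammasome sensors to the protease. It was above background on no siRNA array and at -0.79 with 5-aza-dC, at least 11.5-fold over siCONT. IL1B, which this protease cuts, and IL1A were not above background on that array. Among 10 regulators of cytokine RNA decay, 0 were called with UHRF1 depletion or with TSA alone, and ZFP36L2, a protein that destabilizes such messages, rose by 0.49 with the combination, a call lost without either siCONT array. With 5-aza-dC 3 of these 10 rose and 2 fell.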

How the data were processed

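Total RNA of RKO cells had been hybridized to 9 one-colour Agilent arrays. The deposited intensity of each spot (gProcessedSignal) had been background-subtracted and detrended by the authors with Feature Extraction 10.7, per the file headers, and was not normalized between arrays. How the authors normalized further in GeneSpring is not given in the sources used here. The deposited value table held the same intensities rounded, and served as an alternative. Control and outlier spots were left out, spots of a probe were averaged, and log2 intensity was taken relative to each array's 75th percentile. limma 3.58.1 in R 4.3.3 (lmFit, eBayes) used 1 fit of 4 groups (8 siRNA arrays) and, for 5-aza-dC, 1 of 5 groups (9 arrays), over probes well above background (at least 0.5 of their spots) on both arrays of a group or on the 5-aza-dC array. Scripts were tested on simulated data. The number of arrays limits the precision. Where all arrays of a group were below background, a fold change was given as a lower bound: the mean of the brighter group against, per array of the dimmer one, the higher of the lowest level above background and the probe's own. Such a bound holds for this processing only. All members were named. Genes of the lists were drawn, per list and comparison, from up to 4 called genes of largest change whose groups did not overlap. Not all of these genes are printed above, but the counts of named pathway calls include the unprinted ones. Values of NFKBIA, NFKB1, RELA, CXCR3, CCR6, IL6ST, CXCL16 and CCL3 were given outside that rule. The members and lists were chosen with earlier results of these data known. Alternatives were other background corrections, scalings, filters, priors and tests, a block, and each array left out.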

Additional observations from a re-analysis of the deposited data

Results flagged for a closer look

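CCL20 gave a signal on 1 siRNA array. On siUHRF1 + TSA replicate 1 the probe A_23_P17065 had a signal of 118, at least 8.36-fold over siCONT, whereas it was not above background on siUHRF1 + TSA replicate 2 or on any other siRNA array. It stands out as a signal above the control level that entered no test among the siRNA arrays, since the other array of the group was below background. The pixel values of that spot are given with the levels of CCL20, and their part in the signal was not tested.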

How the results depend on the processing

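Among the values of CXCL2, CXCL5 and CCL20, 420 of 475 kept their direction and their side of the threshold over the alternatives, and among those of the named pathway genes 998 of 1352. The cause of a change was not tested. Of the member probes, 0 were called for siCONT + TSA against siCONT, siUHRF1 + TSA against siCONT and siUHRF1 + TSA against siUHRF1 with normexp background correction, with spike-in scaling and with no filter on dim probes, in place of 1 each. For the combination against siCONT and against siUHRF1, 0 were called also with only the arrays of the groups compared and with the methods' t-test, unadjusted or after Benjamini-Hochberg. At an unadjusted p below 0.05, 2 were called for the combination against siCONT, where 8965 of all 23703 probes were. For 5-aza-dC, 9 were called with no filter on dim probes in place of 2. With each array left out in turn, 0 to 1 were called for TSA alone, 0 to 2 for the combination against siCONT, 0 to 1 for it against siUHRF1 and 2 to 3 for 5-aza-dC. The added calls were CCL20 without siUHRF1 + TSA replicate 2, where the combination was compared with siCONT or siUHRF1, and CXCL2 on A_24_P257416 without either siUHRF1 array for 5-aza-dC. That of CCL20 entered through the 1 array left in its group, where it was high, and is no test of a rise. For UHRF1 depletion alone, for depletion under TSA and for the comparison of these effects, 0 were called under every alternative run. CXCL2 on A_23_P315364 remained lower with 5-aza-dC and called under all 18 alternatives.

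With normexp background correction, TSA alone gave 0.34 for CXCL2 on A_24_P257416, 0.047 for REL, 0.22 for TSLP and 0.18 for IL24, each with the sign turned. UHRF1 depletion under TSA then gave -0.34 and -0.43 for the CXCL2 probes, -0.015 for CXCL5, -0.11 for IL24 and -0.13 for AREG, its excess over depletion under mock -0.30 and -0.37 for the CXCL2 probes, and 5-aza-dC -0.56 for CCL20. With spike-in scaling, UHRF1 depletion gave 0.38 and 0.33 for the CXCL2 probes, its excess under TSA -0.16 for CXCL2 on A_23_P315364, and 5-aza-dC -0.45 for CXCL5. With each array left out in turn, UHRF1 depletion gave -0.12 to 0.071 for CXCL2 on A_23_P315364 and -0.49 to 0.35 on A_24_P257416. Depletion under TSA gave -0.16 to 0.40 on A_23_P315364, its excess over depletion under mock -0.14 to 0.42 there, -0.046 to 0.80 on A_24_P257416 and -0.16 to 0.024 for CXCL5, and the combination against siUHRF1 -0.72 to 0.12 on A_24_P257416. Of the results turned here, REL, TSLP and IL24 with TSA, IL24 and AREG with depletion under TSA, and CXCL5 with 5-aza-dC were calls as reported, and the others were not.

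Spike-in scaling moved the median of all probes by 0.40 for UHRF1 depletion, 0.18 for TSA, 0.28 for the combination and -1.32 for 5-aza-dC. Of the probes called, 64.3% were higher for the combination and 49.5% for 5-aza-dC, against 90.3% and 11.6% with spike-in scaling, 52.8% and 46.1% with quantile normalization and 67.2% and 33.5% with normexp. For TSA alone it was 61.8%, and 75.9%, 53.6% and 47.9%. Over all probes the counts called with each array left out in turn were 90 to 248 for UHRF1 depletion (133 with all), 187 to 4487 for TSA (2467), 1778 to 7523 for the combination (5501), 453 to 1113 for depletion under TSA (833), 1530 to 6306 for the combination against siUHRF1 (3665) and 9481 to 15061 for 5-aza-dC (13259). With the methods' t-test after Benjamini-Hochberg, 1 probe was called for UHRF1 depletion and 61 for the combination. Of the named pathway calls, 2 of 12 held with any array left out for TSA and 5 of 18 for the combination. For 5-aza-dC only the called gene of largest change in each list was run in this way, so no like count can be given.

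With the replicate number as a block, CXCL2 on A_23_P315364 gave -1.07 for TSA alone (adjusted p = 0.0420), -0.95 for the combination (adjusted p = 0.0303) and -0.92 against siUHRF1 (adjusted p = 0.0445), and no call of a member changed. Of 52 named pathway calls 9 were lost with it, and over all probes the counts went from 2467 to 2071 for TSA alone and from 5501 to 5306 for the combination. Same-numbered siUHRF1 and siUHRF1 + TSA arrays share their siRNA and their slide column and deviated together (correlation 0.466), a pairing the main fit omits. Other group pairs did not (-0.047 to 0.080). A random siRNA block had a correlation of 0.423. A block for slide or scan was not run, since the siRNA arrays share 1 slide and 1 scan, and 5-aza-dC has no number to pair. The brightness of dim probes over background limits 7 of the 10 genes to bounds.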
